A study of Epinephelus fuscoguttatus x Epinephelus lanceolatus with 9 samples.

Results

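The creatine synthesis genes gatm and gamt were followed in intestine of the pearl gentian grouper, the cross of the groupers Epinephelus fuscoguttatus and E. lanceolatus raised in aquaculture. Both were taken by symbol from the deposited count table, which makes 2 genes of 22344. The gene gatm was chosen by its level in these same libraries, for its large difference between groups, so its values are given as a description with no p, while gamt came with it as the next enzyme of the pathway and could be tested. RNA sequencing gave 9 libraries, 3 in each of the groups called FM, SBM and Drug. The labels leave FM and SBM unexplained, in aquafeed commonly fish meal and soybean meal, and the series title names the herb Lithospermum erythrorhizon without a dose, duration or base diet for Drug. All fish were the same hybrid, and age, gut segment and time of sampling are not in the labels. The labels do not say that each library is a separate fish either, so every p reflects the spread among these 9 libraries and that spread may be technical.

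Creatine is a small store of energy-rich phosphate that buffers ATP where demand is high, the gut epithelium included. It is made in a pair of steps. The mitochondrial enzyme glycine amidinotransferase, encoded by gatm, moves the amidino group of arginine onto glycine, giving guanidinoacetate and ornithine, and guanidinoacetate methyltransferase, encoded by gamt, adds a methyl group from S-adenosylmethionine. In mammals the first step is strongest in kidney and pancreas and the last in liver. In rat kidney and chick liver the amidinotransferase is known to fall when creatine is supplied.

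Total counts per library lay between 32866956 and 35481806. FM replicate 3 stood apart from the other 8 libraries: the summed level of the hepatocyte marker list was 25026 CPM there and at most 2250 CPM elsewhere. CPM here is the usual count relative to library size, with library sizes scaled by TMM (trimmed mean of M values) factors. Enterocyte markers were present in all 9 libraries, with the fatty acid binding protein gene fabp2 between 402 and 6598 CPM and the cadherin gene cdh17 between 797 and 1900 CPM, as the labelled tissue implies. The brush border phosphatase gene alpi.1 was at 0.11 CPM or less throughout.

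Levels of gatm were low in FM and SBM and far higher in Drug. The 3 FM libraries held 24, 9 and 58 counts of gatm in order of replicate number, which is 0.657, 0.237 and 1.71 CPM. The SBM libraries held 105, 20 and 117 counts, or 3.65, 0.574 and 3.48 CPM. The Drug libraries held 539, 3070 and 984 counts, or 15.3, 87.8 and 28.9 CPM. Each Drug library was above each of the other 6, and the lowest of them was 4.20 times the highest SBM library and 8.97 times the highest FM library. FM and SBM overlapped, because SBM replicate 2 lay among the FM libraries. At the smallest count, 9 in FM replicate 2, the exact Poisson 95% interval was 4.12 to 17.1 counts, or 0.109 to 0.450 CPM, which covers counting error only.

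The mean of gatm was 0.868 ± 0.758 CPM in FM, 2.57 ± 1.73 CPM in SBM and 44.0 ± 38.5 CPM in Drug (SD, n = 3 each). Spread within a group was wide, with the highest library 7.20 times the lowest in FM, 6.35 times in SBM and 5.73 times in Drug. The log2 fold change from the edgeR model was 5.67 for Drug vs FM and 4.10 for Drug vs SBM, a 50.9-fold and a 17.2-fold difference. These were the 25th and the 13th highest of the 17731 tested genes, but a high rank follows from the choice of gatm for its difference and is no separate result. For SBM vs FM it was 1.57, with groups that overlapped. These comparisons share libraries and are set side by side. Without Drug replicate 2 the log2 fold change of Drug vs FM was 4.70, and without FM replicate 3 it was 6.62. For Drug vs SBM it was 3.12 without Drug replicate 2, and for SBM vs FM it was 2.51 without FM replicate 3. In bulk tissue, fewer cells of a type and less RNA per cell cannot be told apart.

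**Figure D1:**
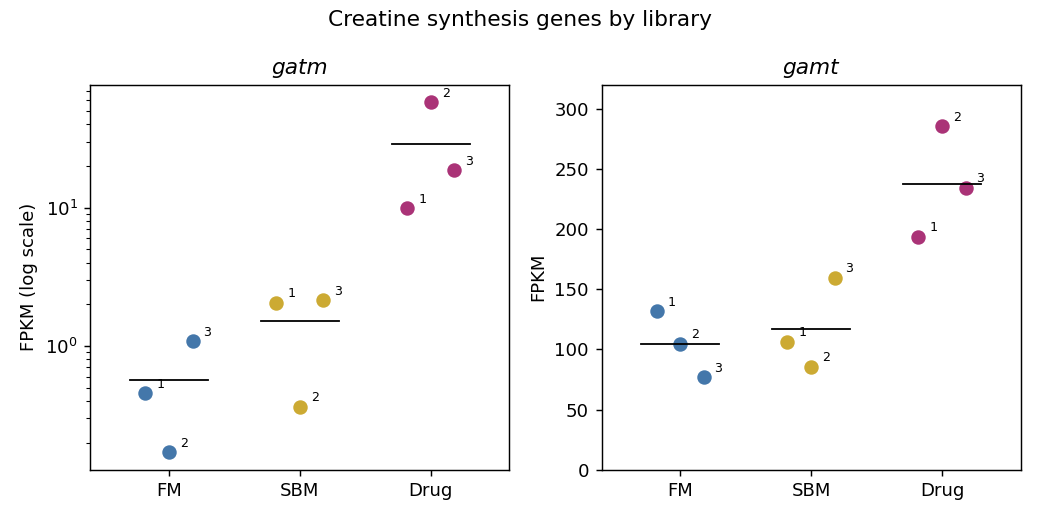
Deposited FPKM, a level per gene length and library total, of gatm, on a log axis, and of gamt, on a linear axis from 0, in the 9 libraries by group. Points are libraries with their replicate number and black lines are means of 3 libraries; the Drug libraries lie between 9.90 and 57.7 FPKM for gatm, above all the others.

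The second enzyme gene, gamt, was abundant in every library and also highest in Drug. It held 119, 91.3 and 76.3 CPM in FM replicates 1, 2 and 3, then 118, 85.0 and 163 CPM in SBM. In Drug it stood at 188, 272 and 229 CPM. All Drug values were above all FM and SBM values, although the lowest Drug library was only 1.15 times the highest SBM library. FM and SBM overlapped. Group means were 95.5 ± 21.6, 122 ± 39.4 and 230 ± 42.2 CPM in FM, SBM and Drug (SD, n = 3 each).

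Between Drug and FM gamt rose 2.41-fold (log2 fold change 1.27, SE 0.27, adjusted p = 0.0378 by edgeR's quasi-likelihood test with Benjamini-Hochberg adjustment). The 95% interval of this fold change was 1.57 to 3.68, and 3 of 3 Drug libraries were above every FM library. Over all 17731 tested genes 2.86% rose and 1.52% fell in this comparison, and 32.8% had groups that did not overlap. The call was lost when any one of the 3 Drug or 3 FM libraries was left out, with adjusted p between 0.0751 and 0.137. On the FPKM scale limma gave 0.0510 with a pseudocount of 1 and 0.0501 with 0.1. With the replicate number as a block it was 0.0502. The call was kept without any one of the SBM libraries and with DESeq2, at 0.000415.

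Between Drug and SBM gamt did not pass (log2 fold change 0.91, SE 0.27, adjusted p = 0.231 by edgeR), with a 95% interval of 1.23-fold to 2.87-fold before adjustment. Groups did not overlap for gamt here, as for 19.9% of all tested genes. With DESeq2 the adjusted p was 0.0458. Between SBM and FM it did not pass either, at a log2 fold change of 0.36 (SE 0.27, adjusted p = 0.485) and a 95% interval from 0.842-fold to 1.95-fold. In that comparison 22.8% of tested genes had groups that did not overlap.

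Per length, gamt stood above gatm in all 9 libraries, and the gap was smallest in Drug. The FPKM values rest on gene lengths of 1552 bases for gatm and 974 bases for gamt, as worked out from the deposited counts and FPKM. The FPKM of gamt was 288, 613 and 71.1 times that of gatm in the FM libraries and 51.7, 236 and 74.7 times in the SBM libraries. In Drug it was 19.6, 4.94 and 12.6 times. All 3 Drug ratios were under all others, while FM and SBM overlapped, and since gatm was picked for its levels no test is given. On the same FPKM scale 26.2% to 42.5% of the 22344 genes were at or below gatm in FM and 32.6% to 56.4% in SBM, against 79.1% to 94.6% in Drug. For gamt this share was 96.1% to 98.7% over the 9 libraries.

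**Figure D2:**
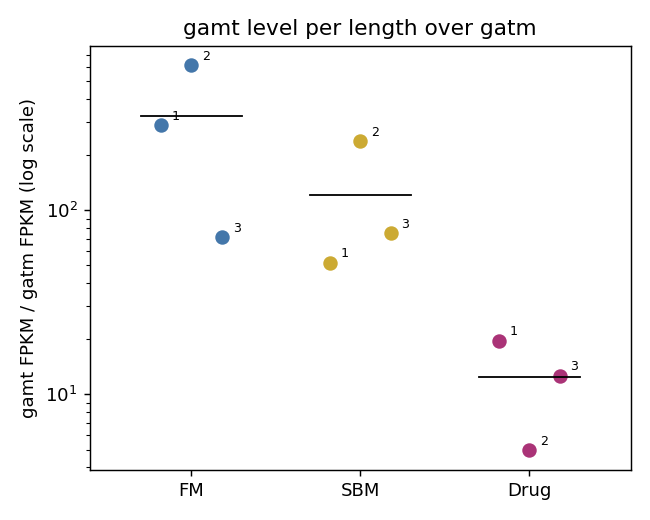
FPKM of gamt divided by FPKM of gatm, on a log axis, in the 9 libraries by group. Points are libraries with their replicate number and black lines are means of 3 libraries; the ratio is lowest in Drug replicate 2, at 4.94, and highest in FM replicate 2, at 613.

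Both genes were highest in Drug replicate 2 among the 9 libraries. Within SBM both were lowest in replicate 2. Within FM both were lower in replicate 2 than in replicate 1. FM replicate 3, the library with abundant hepatocyte transcripts, had the highest gatm and the lowest gamt of its group. The gatm level of FM replicate 3, 1.71 CPM, was below that of every Drug library and of SBM replicates 1 and 3. The part of hepatocyte transcripts in these levels was not tested.

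The wider pathway was described with 5 lists of genes linked to creatine: transport, creatine kinases, and the metabolism of arginine and ornithine, of glycine and serine, and of methionine and methyl groups. Of 110 symbols searched, 72 were in the table and 65 passed the filter on low counts, with dmgdh in both the glycine and the methionine list. In Drug vs FM 6 of the 65 rose, none fell and 59 did not pass. That is 9.23% of them, against 4.38% of all tested genes called in either direction, and the median log2 fold change was 0.06 against -0.04 over all tested genes. In SBM vs FM 1 gene rose and none fell, where 0.446% of all tested genes rose, 0.147% fell and 0.592% were called in all; 15 of the 65 had an unadjusted p under 0.05, against 20.5% of all tested genes. With the replicate number as a block 3 genes rose there, slc6a8, azin1b and gcshb, where 1.66% of all tested genes were called. DESeq2 called 11 of the list genes there, against 9.23% of all tested genes. In Drug vs SBM none of the 65 passed with edgeR, where 0.0395% of all tested genes were called; 14 of the 65 had an unadjusted p under 0.05, against 13.1% of all tested genes, and DESeq2 called 6, against 3.55%. The 6 calls of Drug vs FM were 0 without Drug replicate 3 or FM replicate 2, 1 without FM replicate 1, and 2 without Drug replicate 1, Drug replicate 2 or SBM replicate 3. They were 4 without FM replicate 3, 10 without SBM replicate 1 or SBM replicate 2, 12 on the 2 groups alone, 1 of them lower, and 19 with DESeq2, 5 of them lower, where DESeq2 called 13.8% of all tested genes. Over all genes of each fit, the 777 calls became 44 without Drug replicate 3, 10 without FM replicate 2 and 109 without FM replicate 1. They became 102, 247 and 281 without Drug replicate 1, Drug replicate 2 and SBM replicate 3. Without FM replicate 3 they were 568. Without SBM replicate 1 or SBM replicate 2 they were 1711 and 1211, and on the 2 groups alone 1578.

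Creatine uptake was represented by slc6a8, the sodium-dependent creatine transporter. It was at 123, 116 and 110 CPM in FM, at 281, 389 and 502 CPM in SBM, and at 314, 428 and 480 CPM in Drug. Groups did not overlap for 22.8% of all tested genes in SBM vs FM and 32.8% in Drug vs FM. For slc6a8 FM was below all other libraries, while SBM and Drug overlapped. Unlike gatm, slc6a8 thus stood high in both SBM and Drug. It rose 3.35-fold in SBM vs FM (log2 fold change 1.75, SE 0.24, adjusted p = 0.0283) and 3.50-fold in Drug vs FM (1.81, SE 0.24, adjusted p = 0.0119), which share the FM libraries. In Drug vs SBM its log2 fold change was 0.06 (SE 0.23, adjusted p = 0.939). The SBM vs FM call was lost without Drug replicate 2 or 3, without any one FM library and without SBM replicate 3, with adjusted p up to 0.148. It was also lost on the 2 groups alone, at 0.106, and in the fits to FPKM. The Drug vs FM call was lost without Drug replicate 3, at 0.0590, and without FM replicate 2, at 0.0723. The other listed transporter, slc16a12b, was at 0.619 CPM or less in every library and was not tested.

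Creatine kinases hand phosphate between ATP and creatine, and among the 5 found by symbol ckba was the most abundant. Genes known only by a LOC number joined no list, so any kinase gene among them was not counted here. The brain-type gene ckba had a mean of 1281 FPKM over the 9 libraries, against 0.322 FPKM for ckbb. Its levels were 2536, 2466 and 1721 CPM in FM, 2285, 3007 and 2559 CPM in SBM, and 1851, 1612 and 1517 CPM in Drug. Every Drug library was below every SBM library, where groups did not overlap for 19.9% of all tested genes, but FM overlapped both. With edgeR ckba did not pass in Drug vs SBM (log2 fold change -0.66, SE 0.18, adjusted p = 0.203) or in Drug vs FM (-0.43, SE 0.18, adjusted p = 0.177). DESeq2 called no gene of the kinase list. The muscle-type genes ckma and ckmb and the mitochondrial ckmt2a did not pass the filter. Of these, ckma and ckmb reached 1.73 and 1.82 CPM in Drug replicate 3 and ckmt2a stayed at 0.176 CPM or less.

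Arginine is the donor in the gatm step and ornithine is its by-product. Of 25 listed genes of these amino acids 22 were tested, and 3 rose in Drug vs FM with edgeR while 19 did not pass, where 2.86% of all tested genes rose. DESeq2 called 6, of which 2 were lower, against 13.8% of all tested genes. The agmatinase gene agmat, named for the hydrolysis of agmatine, was at 30.8, 22.1 and 28.5 CPM in FM, 57.2, 27.6 and 50.9 CPM in SBM, and 69.2, 70.4 and 62.6 CPM in Drug. It rose 2.48-fold in Drug vs FM (log2 fold change 1.31, SE 0.26, adjusted p = 0.0307). The gene slc25a15b, for a carrier that takes ornithine into mitochondria, was at 7.36, 8.65 and 7.99 CPM in FM, 14.3, 7.90 and 12.8 CPM in SBM, and 19.2, 18.6 and 16.4 CPM in Drug (2.26-fold for Drug vs FM, adjusted p = 0.0271 by edgeR). A gene of proline synthesis, pycr1a, went from 10.3 ± 1.48 to 17.4 ± 0.375 CPM (1.69-fold, adjusted p = 0.0365). For all 3 genes every Drug library was above every FM and SBM library, and SBM overlapped FM. Over all tested genes, groups did not overlap for 32.8% in Drug vs FM and 19.9% in Drug vs SBM. The 3 genes were named for passing in Drug vs FM, so their separation from FM is no separate result. Each of the 3 calls was lost without any one Drug or FM library and without SBM replicate 3, with adjusted p up to 0.127, 0.101 and 0.131 for agmat, slc25a15b and pycr1a. The pycr1a call was also lost without both FM replicate 3 and SBM replicate 2, at 0.0511.

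No gene of the arginine and ornithine list passed in SBM vs FM or Drug vs SBM with edgeR. There 5 and 3 had an unadjusted p under 0.05, against 20.5% and 13.1% of all tested genes. DESeq2 called 2 and 2 of the 22, against 9.23% and 3.55% of all tested genes. The most abundant member per length, the antizyme inhibitor gene azin1b at 128 FPKM, was at 299 ± 50.1 CPM in FM, 488 ± 62.9 CPM in SBM and 453 ± 58.7 CPM in Drug (adjusted p = 0.0947 for SBM vs FM and 0.0858 for Drug vs FM with edgeR). DESeq2 called azin1b in both, at 0.00840 and 0.0203, as did the fit with the replicate block, at 0.0484 and 0.0367. In each of these comparisons the other 16 of 18 alternatives did not pass. The cystine and dibasic amino acid transporter subunit slc3a1, which serves arginine uptake, was at 69.0, 76.7 and 38.6 CPM in FM, SBM and Drug (adjusted p = 0.105 for Drug vs FM and 0.205 for Drug vs SBM with edgeR, 0.0378 and 0.0303 with DESeq2). The liver arginase gene arg1 and the arginine transporter gene slc7a2 were at 10.3 and 10.8 CPM in FM replicate 3 and at most 0.172 and 0.352 CPM in the other 8 libraries, so their FM means rest on that library.

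Glycine receives the amidino group. Among 23 tested genes of glycine and serine metabolism 1 rose in Drug vs FM with edgeR, gcshb, which encodes the lipoyl carrier protein of the glycine cleavage system. That share, 4.35%, is close to the 4.38% called among all tested genes, and DESeq2 called 6 of the list, 3 of them lower, against 13.8% of all tested genes. The levels of gcshb were 16.5, 8.60 and 24.2 CPM in FM and 77.3, 42.1 and 90.0 CPM in SBM. In Drug they were 128, 116 and 147 CPM, so the 3 groups did not overlap. Over all tested genes, groups did not overlap for 22.8% in SBM vs FM, 19.9% in Drug vs SBM and 32.8% in Drug vs FM. The gene gcshb was named for passing in Drug vs FM, so its separation from FM is no separate result. The rise in Drug vs FM was 7.94-fold (log2 fold change 2.99, SE 0.40, adjusted p = 0.0133). It was lost without Drug replicate 3, FM replicate 1 or FM replicate 2, at 0.0590, 0.0521 and 0.0514. In SBM vs FM gcshb had a log2 fold change of 2.09 (SE 0.39, adjusted p = 0.0516 by edgeR). There it passed in 6 of 18 alternatives, with an adjusted p of 0.0211 with a replicate block. The other 12 did not pass, with adjusted p up to 0.207 without SBM replicate 3. Partner genes of the same complex, amt and gldc, had means of 17.0 and 40.7 CPM in FM against 69.0 and 116 CPM in Drug (adjusted p = 0.0752 and 0.273 with edgeR). DESeq2 and the fit with the replicate block called amt in Drug vs FM, but not gldc. The remaining partner, dldh, was at 171 CPM in FM and 174 CPM in Drug (log2 fold change 0.02, SE 0.13, adjusted p = 0.940). With DESeq2 dldh was called in SBM vs FM and in Drug vs SBM, but not in Drug vs FM.

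The folate enzyme gene shmt1, which interconverts serine and glycine, was at 412, 496 and 391 CPM in FM, SBM and Drug, and its smallest adjusted p in the 3 comparisons was 0.519. The neutral amino acid transporter gene slc6a19b spanned 23.0 to 156 CPM in FM, 51.9 to 914 CPM in SBM and 645 to 1059 CPM in Drug (adjusted p = 0.135 for Drug vs FM with edgeR and 0.0213 with DESeq2). Its lowest SBM value was again in replicate 2. In SBM vs FM and Drug vs SBM no gene of this list passed with edgeR. There 4 and 9 had an unadjusted p under 0.05, against 20.5% and 13.1% of all tested genes. DESeq2 called 4 and 3 of the 23, against 9.23% and 3.55% of all tested genes.

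The methyl group of creatine comes from S-adenosylmethionine. Of 18 tested genes of the methionine cycle and methyl transfer, 1 rose in Drug vs FM with edgeR and 17 did not pass. Over all tested genes 2.86% rose in this comparison. The gene of S-adenosylmethionine synthesis mat2ab held 366, 337 and 286 CPM in the FM libraries and 593, 127 and 360 CPM in the SBM libraries. Groups did not overlap for 32.8% of all tested genes in Drug vs FM and 19.9% in Drug vs SBM. In Drug mat2ab reached 1157, 711 and 1047 CPM. All Drug libraries were above all others, but with edgeR the difference did not pass (log2 fold change 1.56, SE 0.46, adjusted p = 0.0910 for Drug vs FM, and 0.263 for Drug vs SBM). DESeq2 called mat2ab in both, at 0.00856 and 0.0465, and 5 of 18 alternatives passed in Drug vs FM. The liver form mat1a was at 155 CPM in FM replicate 3 and at most 8.06 CPM elsewhere. The hydrolase gene ahcy, which clears the S-adenosylhomocysteine left by gamt, was at 340 CPM in FM, 491 CPM in SBM and 476 CPM in Drug (adjusted p = 0.184 for Drug vs FM). The spermine synthase gene sms was at 50.0, 177 and 61.9 CPM (adjusted p = 0.190 for SBM vs FM with edgeR and 0.0336 with DESeq2). No member of this list passed with edgeR in SBM vs FM or Drug vs SBM. There 6 and 1 had an unadjusted p under 0.05, against 20.5% and 13.1% of all tested genes. DESeq2 called 5 and 1 of the 18, against 9.23% and 3.55% of all tested genes. In Drug vs FM DESeq2 called 7 of them, 1 lower, against 13.8% of all tested genes. Where a symbol ends in a or b the fish may hold a near-identical copy that takes part of the reads, and the level of such a gene is uncertain.

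**Figure D3:**
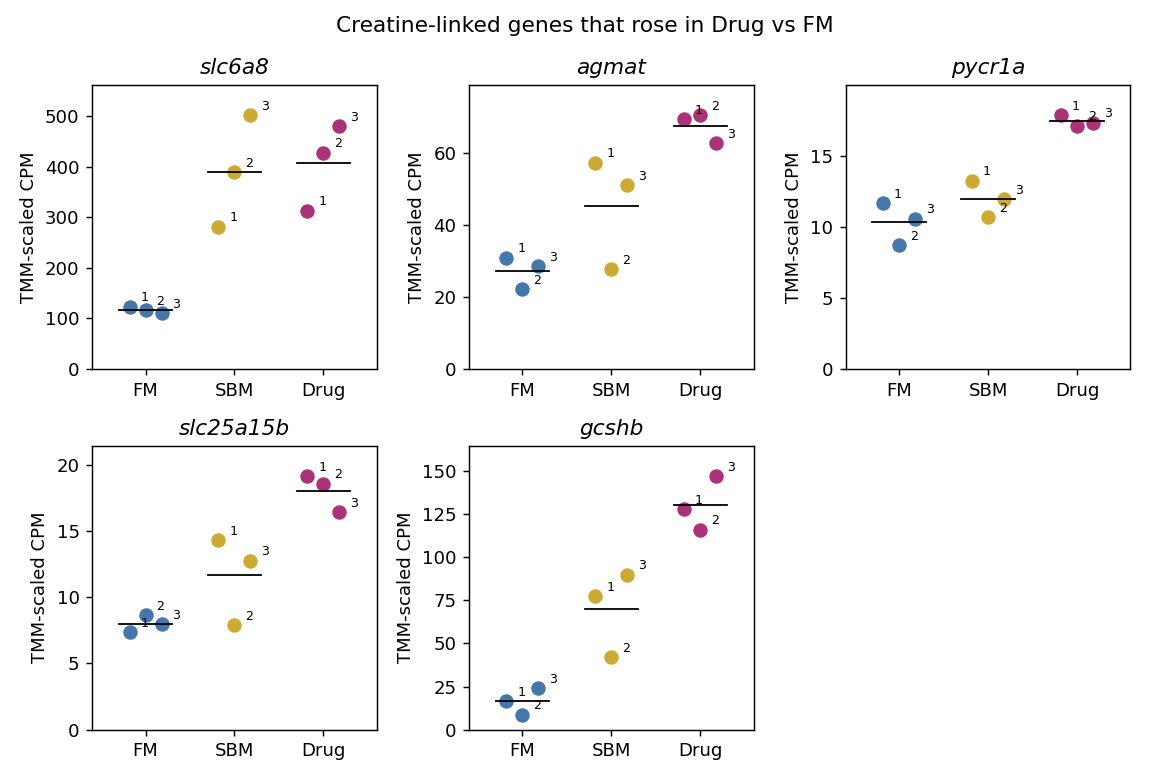
TMM-scaled CPM of 5 of the 6 creatine-linked genes that rose in Drug vs FM, in the 9 libraries by group, with axes from 0. Points are libraries with their replicate number and black lines are means of 3 libraries; slc6a8 is already high in SBM, at 281 to 502 CPM, while pycr1a in SBM lies close to FM.

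The genes whose pattern was nearest to that of gatm were found by the root mean square difference of log2(CPM + 1) over the 9 libraries, each gene centred on its own mean, among 8781 named genes with a mean of at least 5 CPM. The nearest was aqp10a, an aquaglyceroporin, at a difference of 0.41, where the median of all candidates was 2.04. In aqp10a the FM libraries held 0.164, 0 and 0.0884 CPM, the SBM libraries 3.79, 0.0574 and 2.23 CPM, and the Drug libraries 12.3, 68.1 and 34.4 CPM. As in gatm, Drug replicate 2 was highest and SBM replicate 2 lay with FM. Next came tmprss15, the enteropeptidase that activates trypsinogen at the brush border (0.68), tm4sf5, a membrane protein of the tetraspan kind (0.81), cpo, a brush border carboxypeptidase (0.82), and arsa, the lysosomal arylsulfatase A (0.87). Their means rose in the same order of groups, for instance from 13.2 to 44.3 and 133 CPM in FM, SBM and Drug for cpo. These genes were picked for nearness to gatm, so the shared order follows from the choice and is no separate result. In aqp10a only the Drug libraries were above 5 CPM. The root mean square of gatm about its own mean was 2.01, close to the median difference of the candidates.

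For gamt the nearest genes were gckr, the glucokinase regulator (0.24), grhpra, a glyoxylate reductase (0.25), ppip5k1b, an inositol pyrophosphate kinase (0.26), nenf, the secreted protein neudesin (0.27), and si:dkey-69o16.5, which has no name in the table (0.28). The median difference of the candidates from gamt was 0.67. The level of gckr was 6.70 ± 1.90 CPM in FM, 8.97 ± 2.55 CPM in SBM and 16.7 ± 2.68 CPM in Drug (SD, n = 3 each). The difference between gatm and gamt themselves was 1.48, and 111 genes were nearer to gatm than gamt was. Seen from gamt, gatm came 8656th in nearness among the 8781 candidates. The root mean square about the gene's own mean was 0.61 for gamt and 2.01 for gatm. The difference is not scaled for this, so the rank reflects the size of the changes and does not compare shape alone. All these values are a description of 9 libraries that share the same groups.

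**Figure D4:**
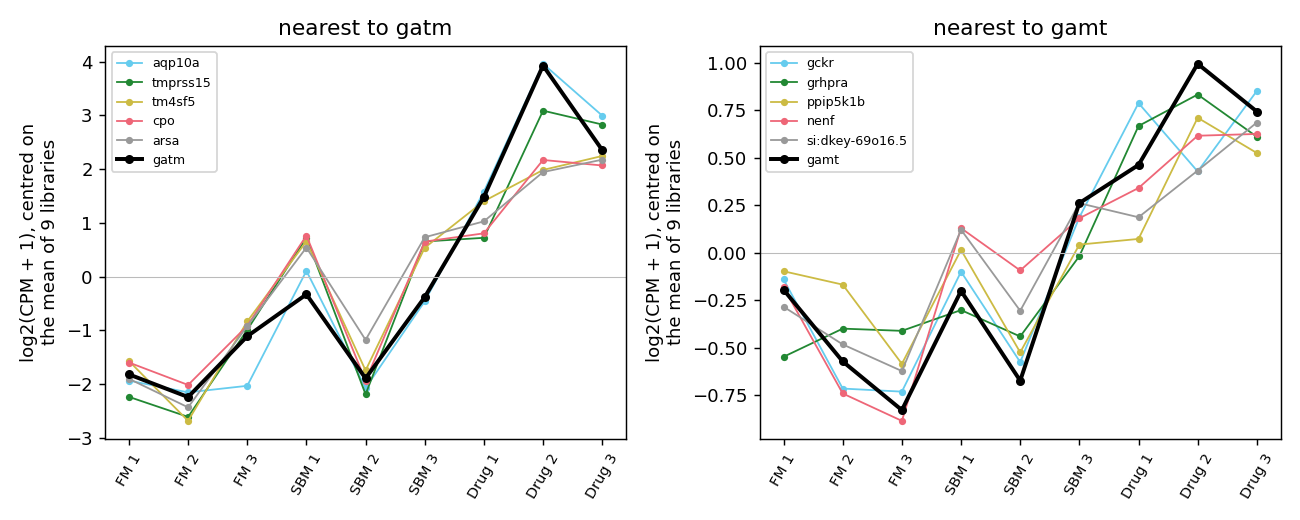
Centred log2(CPM + 1) in the 9 libraries for gatm and gamt (black) and the 5 genes nearest to each in root mean square difference (colours). Lines join libraries only as a guide; aqp10a tracks gatm with a difference of 0.41, and the vertical range is far smaller for gamt.

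Of the summed marker levels, only those of the enterocyte and goblet lists had ranges that did not overlap between the 3 groups. No marker gene of any list passed in Drug vs SBM with edgeR, where 0.0395% of all tested genes were called. The summed level of the enterocyte list, of which 7 of 20 symbols were in the table, was 1598 to 2304 CPM in FM, 2951 to 6937 CPM in SBM and 8665 to 10727 CPM in Drug, and these ranges did not overlap. The gap between the SBM and Drug sums rests on fabp2, which made up 59.0% to 63.6% of each Drug sum. By gene, slc15a1a was also higher in every Drug library (51.5 to 295 CPM) than in any SBM library (0.603 to 32.1 CPM). The other way, every Drug library was below every SBM library in cdx1b (153 to 179 against 200 to 257 CPM) and cdh17 (1313 to 1529 against 1577 to 1900 CPM). Groups did not overlap for 19.9% of all tested genes in Drug vs SBM. Without fabp2 the sums were 3943, 2169 and 3881 CPM in SBM and 3577, 3555 and 4129 CPM in Drug, which overlap, against 1196 to 1470 CPM in FM. Within SBM the full sum was lowest in replicate 2, as were gatm and gamt, but within Drug it was lowest in replicate 2, where both were highest. Of its 6 tested genes 1 rose in SBM vs FM and 2 in Drug vs FM, where 0.446% and 2.86% of all tested genes rose; these shares hold beside the counts of the other marker lists too, and 1.52% of all tested genes fell in Drug vs FM. The lysosome-rich enterocyte list, 13 of 16 symbols, went from 15456 to 19538 CPM in FM and 9806 to 23114 CPM in SBM to 8975 to 10778 CPM in Drug, with 1 gene lower in Drug vs FM. Its most abundant genes were lgmn, at 2063 to 7857 CPM over the 9 libraries, and cubn, at 895 to 3496 CPM. The part of these lists in the gatm and gamt differences was not tested.

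Markers of organs that make creatine in mammals were set beside gatm as well, and their part in its differences was not tested. The hepatocyte list, 19 of 27 symbols, was at 1243 to 2250 CPM in Drug, 916 to 1438 CPM in SBM and 739 to 857 CPM in FM replicates 1 and 2, against the 25026 CPM of FM replicate 3. Its 2 most abundant genes by mean were a1cf, at 685 to 1273 CPM in all libraries, and hpxb, at 6361 CPM in FM replicate 3 and at most 7.03 CPM elsewhere. Without FM replicate 3 this sum was higher in Drug replicates 2 and 3 than in any other library, and most of it beside a1cf came from apobb.1 and apoa2, apolipoprotein genes that the intestine also expresses, at 548 and 656 CPM in Drug replicate 2. The a1cf gene made up 85.9% to 88.5% of the hepatocyte sum in SBM and 42.1% to 79.6% in Drug. In FM replicates 1 and 2 it made up 93.2% and 92.7%. Without a1cf the hepatocyte sum was 57.9 and 53.9 CPM in FM replicates 1 and 2. It was then 165, 123 and 176 CPM in SBM and 254, 1304 and 1165 CPM in Drug. The exocrine pancreas list, 8 of 32 symbols and led by ela3l and cpa5, was highest in SBM replicate 1, at 3147 CPM. It stood at 1652, 2351 and 511 CPM in Drug, 626 and 620 CPM in SBM replicates 2 and 3, and 254, 216 and 2299 CPM in FM. The kidney tubule list, 16 of 27 symbols, was at 721 to 1231 CPM in FM, 1011 to 2644 CPM in SBM and 765 to 1615 CPM in Drug, with 1 gene higher in Drug vs FM. The most abundant of its genes, slc12a1, held 302 to 2114 CPM, or 41.9% to 80.0% of the sum. Next by mean came slc26a1, at 49.2 to 302 CPM, slc4a4a, at 38.1 to 48.0 CPM in FM, 65.9 to 195 CPM in SBM and 121 to 284 CPM in Drug, then trpm7 and hnf1ba, with means of 101 and 82.4 CPM. Of the 16 genes, 6 had a median under 1 CPM, among them pax8, slc12a3 and nphs1, at 0.09 CPM or less in every library. Others were higher, with slc22a6l at 7.64 to 48.1 CPM, slc20a1a at 3.01 to 6.07 CPM and cdh16 at 0.398 to 2.29 CPM. No list had a member at 0 in all 9 libraries.

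The smooth muscle list, 14 of 18 symbols, spanned 9702 to 18378 CPM in FM, 14837 to 28323 CPM in SBM and 10771 to 16138 CPM in Drug, with 1 gene higher in each of SBM vs FM and Drug vs FM. It was led by acta2 and tagln, with means of 5546 and 2559 CPM. The goblet list, 2 of 9 symbols (agr2 and sytl2b), was at 78.9 to 101 CPM, 112 to 131 CPM and 137 to 190 CPM in FM, SBM and Drug, with 1 gene higher in Drug vs FM. The sum was mainly agr2, which made up 80.2% to 94.6% of it. The other gene, sytl2b, went the other way. It was at 10.7 to 15.6 CPM in FM, 8.70 to 9.99 CPM in SBM and 9.34 to 10.2 CPM in Drug.

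**Figure D5:**
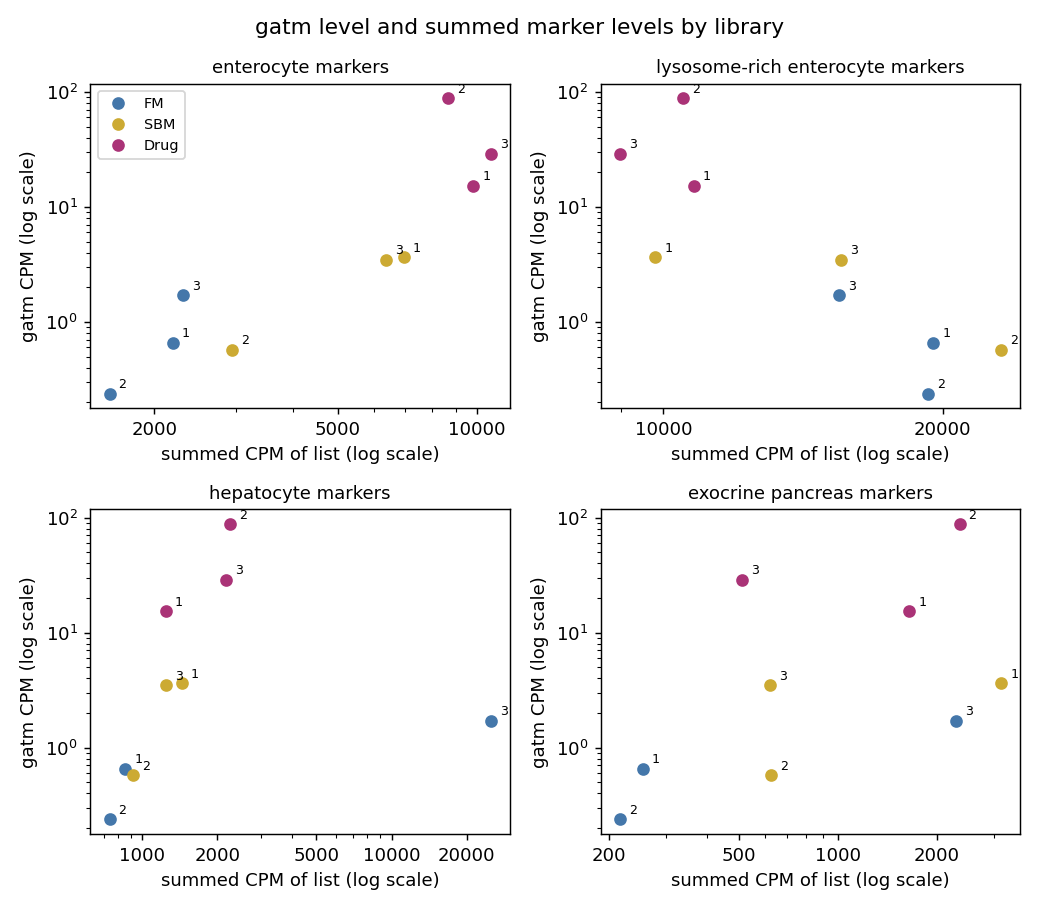
TMM-scaled CPM of gatm against the summed CPM of 4 marker lists in the 9 libraries, both on log axes. Points are libraries with their replicate number, coloured by group; the enterocyte sum separates the 3 groups, though not SBM from Drug once fabp2 is left out, while FM replicate 3 stands alone in the hepatocyte sum at 25026 CPM with gatm at 1.71 CPM.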

How the data were processed

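TRIzol extraction and the VAHTS Universal V6 library kit are given in the labels' protocols. Per the submitters' processing notes, fastp, HISAT2, HTSeq, DESeq2 and R 3.2.0 were used, with no roles given; the notes name mm10, a mouse build, while the symbols are fish symbols, so the sources used here do not give the aligned genome. The deposited counts are raw whole numbers of reads for each gene. The deposited FPKM values come from the authors too: in each of 15780 genes that reached 10 counts in all libraries they were proportional to count over library total (relative tolerance 1e-06). The 9 single-library files equalled their columns. Strand use is not stated, and the 8101 genes with a bare LOC number, holding 27.7% of counts, joined no list.

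The count model was that of edgeR 4.0.16 under R 4.3.3 (filterByExpr, TMM, robust quasi-likelihood F test, two-sided, Benjamini-Hochberg adjustment over 17731 genes, threshold 0.05). All 9 libraries entered 1 model of 3 groups with 6 residual degrees of freedom, checked on simulated data. Each SE is the size of the log2 fold change divided by the root of F. DESeq2 1.42.0 and limma 3.58.1 gave alternatives. Replicates differed far beyond sampling noise (chi-square per degree of freedom 49.0 or more). In 3 of 3 same-numbered pairs of SBM and FM the deviations from group means correlated over 0.1 (0.155 to 0.318), so the title numbers were taken to pair these 2 groups, from the data alone, and blocked values stand beside the SBM vs FM results they change. The blocked fit held all 9 libraries, so the replicate numbers of the Drug libraries enter these values too. Named genes were the members, list genes past the threshold and up to 3 of highest FPKM per list. The 2 most abundant markers per list and the 5 nearest patterns per member were named too. Others (partners, genes high in 1 library, and further markers) were named after their values were seen. Members, lists and alternatives were chosen with earlier results of these data known. The values of 1 list gene past the threshold are not reported here.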

Additional observations from a re-analysis of the deposited data

How the results depend on the processing

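Over 18 alternatives gatm was higher in Drug than in FM and SBM, and gamt kept its direction in all 3 comparisons. For gatm in Drug vs FM the log2 fold change was 3.93 with limma on log2(FPKM + 1) and 4.70 to 6.62 with a library left out. In SBM vs FM it was 0.63 on log2(FPKM + 1), 2.99 without both FM replicate 3 and SBM replicate 2, and 1.11 to 2.51 with a library left out. For gamt in Drug vs FM the call was lost with limma on FPKM, at 1.196 and 1.204 for pseudocounts of 1 and 0.1, and at 1.27 with a replicate block (adjusted p = 0.0502), and the value was 1.13 to 1.46 with a library left out; in Drug vs SBM it passed at 0.92 with DESeq2. The cause of these shifts was not tested, save that a pseudocount of 1 shrinks low values.

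Calls over all genes moved widely. In SBM vs FM 105 became 1637 with DESeq2, 248 with the stricter filter of 5 CPM in 3 libraries, 0 on the 2 groups alone, 49 (22 higher) and 69 (35 higher) on log2(FPKM + 1) and log2(FPKM + 0.1), 169 without the 254 genes over 10-fold higher in FM replicate 3, 295 with a replicate block, 330 without both libraries, and 2 to 424 with a library left out. In Drug vs SBM 7 became 629 (209 higher) with DESeq2, 0 on the 2 groups alone, 4 (2 higher) and 0 on FPKM, 1 with the block, 0 without both libraries, and 0 to 36 with a library left out. In Drug vs FM 777 became 2455 with DESeq2, 1578 on the 2 groups alone, 1293 with the block, 1199 without both libraries, and 10 to 1711 with a library left out. Among creatine-linked genes, the SBM vs FM call of 1 became 11 with DESeq2, 2 with the stricter filter, 0 on the 2 groups alone and in both fits to FPKM, 2 without the 254 genes, 3 with the block, 4 without both libraries, and 0 to 5 with a library left out. The 0 of Drug vs SBM became 6 with DESeq2. The 6 of Drug vs FM became 19 with DESeq2, 12 on the 2 groups alone, 11 with the block, 12 without both libraries, and 0 to 10 with a library left out.

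The titles share replicate numbers. Deviations from group means correlated over 0.1 in 7 of 9 same-numbered pairs (0.05 to 0.37). All 3 SBM and FM pairs were among them, but 1 pair of Drug with each of SBM and FM was not, so Drug was not taken as paired, although each library matched its own number best in 18 of 18 cases. Among gamt and the creatine-linked genes in SBM vs FM, the block added calls of gcshb and azin1b and took none away. In Drug vs FM the block lost the gamt call (adjusted p = 0.0502 by edgeR), while calls of creatine-linked genes went from 6 to 11. Calls over all 17731 tested genes went from 777 to 1293 in the same fit. With limma on log2(FPKM + 0.1), which changes tool, scaling and pseudocount together, the median of all genes was -0.17 against 0.01 in SBM vs FM and 0.11 against -0.01 in Drug vs SBM. Counting error is small for gamt and matters for gatm in FM and SBM replicate 2.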
